A study of Mus musculus with 14 samples.

Results

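The collagen genes of the mouse were followed in brain RNA from mice at postnatal day 23 (P23). All protein-coding genes named in the form Col, number, a, number were taken, which gave 44 of the 56748 genes in the count table, and they were assigned to 8 classes by the kind of assembly their chains form. The rule used gene names and gene type and no expression value, but it was set with earlier results of these data known. RNA came from 1 sagittal side of the brain of 7 mice that carried 2 null copies of the gene 2310061I04Rik (Rik null, labelled 4 female and 3 male) and of 7 wild-type (WT) littermates (3 female and 4 male), all of strain C57BL6/J by the labels. The null allele is a spontaneous intronic deletion that came from a single embryonic stem cell clone, and it was bred away from the floxed Traf7 allele with which it arose, so the comparison is of 1 allele and the chromosome segment around it. Rik null mice at this age are runted and ataxic and are close to death according to the study's description, and effects of the missing gene and of illness cannot be told apart.

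Collagens are made of 3 chains wound into a triple helix, which are hydroxylated and folded in the endoplasmic reticulum, secreted, trimmed and cross-linked. In the brain, fibrillar collagens lie mainly in the meninges and around larger vessels, where fibroblasts make them, whereas the type IV network is the scaffold of the basement membrane between endothelium, pericytes and astrocyte endfeet. Some members are made outside vessels and meninges, such as Col25a1 and Col19a1, which are known from neurons, so the group is defined by gene family and not by cell type. In RNA from a whole tissue block, fewer cells of a type and less RNA per cell cannot be told apart.

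Libraries held 14.7 to 17.9 M counts, and 16882 genes were abundant enough to test. Levels are given as counts per M of scaled library size (CPM), and levels of different genes are compared only as CPM per kb of gene length. Rik itself was lower in the Rik null libraries, at 18 to 56 counts against 483 to 687 in WT (log2 fold change -3.86, SE 0.15, edgeR adjusted p = 2.86e-13). By this gene all 14 libraries matched their genotype labels, and the sex labels were not checked. In a principal component analysis of all genes, Rik null replicate 1 and WT replicate 4 stood apart from the others of their genotype. WT replicate 4 carried RNA of pituitary hormones, with a summed level of 413 CPM over the pituitary markers against at most 25.7 CPM in any other WT library, and calls that were lost without both libraries are given with the gene.

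The stretch of 250 bases before the transcription start is shown for 4 collagen genes, chosen because they passed the test described below and because no annotated exon falls in that stretch. The sequences are from RefSeq on GRCm38.p6 and read 5′ to 3′ on the strand of the gene. Capitals mark the GC box (GGGCGG), the CCAAT box (CCAAT) and the TATA box (TATAAA), each searched on both strands, so that CCGCCC is a GC box on the other strand.
Col5a3 promoter, chr9:20815068-20815317, - strand: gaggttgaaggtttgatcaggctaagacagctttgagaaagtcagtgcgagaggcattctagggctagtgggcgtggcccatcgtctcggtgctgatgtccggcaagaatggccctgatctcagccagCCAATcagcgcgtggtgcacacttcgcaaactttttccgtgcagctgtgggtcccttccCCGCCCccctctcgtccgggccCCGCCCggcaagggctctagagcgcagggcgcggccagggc
Col11a2 promoter, chr17:34038888-34039137, + strand: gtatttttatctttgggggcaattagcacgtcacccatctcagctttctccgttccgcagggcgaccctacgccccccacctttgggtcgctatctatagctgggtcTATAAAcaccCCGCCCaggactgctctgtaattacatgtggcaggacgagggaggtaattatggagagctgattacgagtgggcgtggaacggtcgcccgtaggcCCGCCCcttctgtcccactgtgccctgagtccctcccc
Col3a1 promoter, chr1:45311288-45311537, + strand: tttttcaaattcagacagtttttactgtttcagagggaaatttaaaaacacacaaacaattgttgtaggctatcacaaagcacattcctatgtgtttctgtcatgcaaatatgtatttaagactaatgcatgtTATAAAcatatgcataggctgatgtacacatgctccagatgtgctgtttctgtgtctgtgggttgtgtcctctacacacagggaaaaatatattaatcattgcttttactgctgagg
Col15a1 promoter, chr4:47207762-47208011, + strand: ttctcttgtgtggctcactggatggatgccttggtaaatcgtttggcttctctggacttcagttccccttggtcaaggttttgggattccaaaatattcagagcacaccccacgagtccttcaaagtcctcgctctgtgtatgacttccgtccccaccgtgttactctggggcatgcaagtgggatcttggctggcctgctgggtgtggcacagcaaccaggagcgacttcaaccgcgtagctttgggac
The Col5a3 stretch held 2 GC boxes and 1 CCAAT box, the Col11a2 stretch 2 GC boxes and 1 TATA box, the Col3a1 stretch 1 TATA box and the Col15a1 stretch none of these letters. Of the 44 collagen genes, 35 had a RefSeq promoter entry, and a GC box was found for 21 of them (60.0%), a CCAAT box for 13 (37.1%) and a TATA box for 5 (14.3%). These 35 genes had 38 stretches, and a gene was counted if any of its stretches held the box. Among all 32851 promoter stretches of the same length, counted singly and not by gene, the shares were 32.7%, 33.8% and 12.4%. Of the 3 lower genes shown, 2 held a TATA box and 1 held none of the boxes, and these are matches of letters only.

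Of the 44 collagen genes, 42 could be tested, and Col6a6 and Col10a1 had too few counts (0 to 15 and 0 to 16 per library). At an edgeR adjusted p under 0.05, 4 collagen genes were higher in Rik null brain (9.52%) and 8 were lower (19.0%), where 16.5% and 17.9% of all tested genes were higher and lower. Both shares were close to or below those of all genes, so the counts show nothing particular to the collagen family. Its median log2 fold change was -0.04 against -0.00050 for all tested genes, and its median absolute log2 fold change was 0.23 against 0.22. Col5a3 was the only member that also rose at least 2-fold, where 1.91% of all genes did so, and no member fell by that much, where 1.62% of all genes did. In 4 members (9.52%), namely Col5a3, Col6a1, Col11a2 and Col15a1, the 7 Rik null and 7 WT libraries did not overlap in CPM, against 12.4% of all tested genes. The summed level of the 44 genes was 394 to 464 CPM in Rik null libraries (median 447) and 408 to 480 CPM in WT libraries (median 455), so the differences below were between members.

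**Figure D1:**
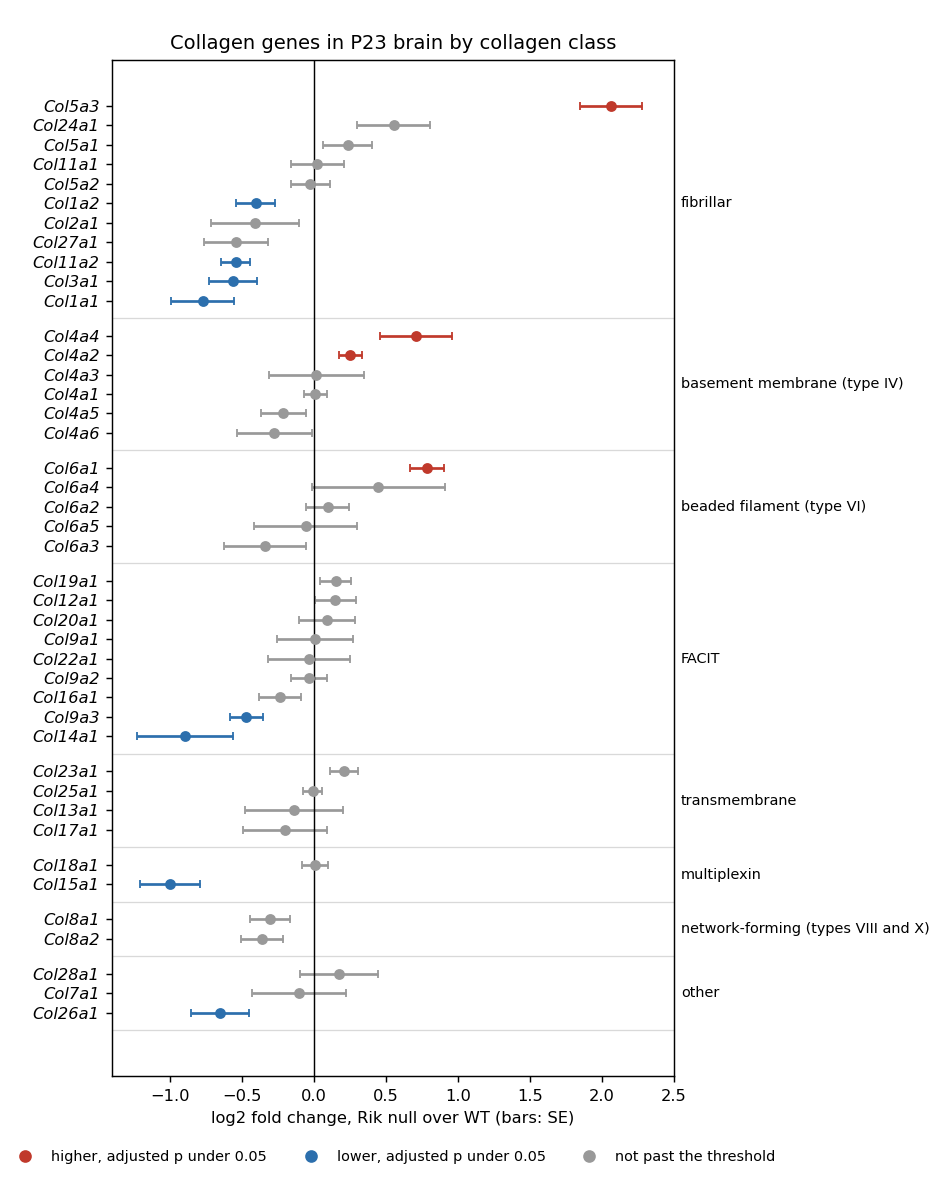
Log2 fold change of the 42 tested collagen genes in Rik null over WT brain (x axis), with bars for the SE, grouped by collagen class and ordered within it (y axis), from 7 libraries per genotype. Red points were higher and blue points lower at an edgeR adjusted p under 0.05. Col5a3 at 2.07 lies far to the right of the other fibrillar collagens, 4 of which were lower, and Col15a1 lies farthest to the left at -0.998.

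Fibrillar collagens form the banded fibrils of connective tissue. Of the 11 genes, all tested, 1 was higher (9.09%) and 4 were lower (36.4%), beside 16.5% and 17.9% of all tested genes, with a median log2 fold change of -0.40. Their summed level was 79.9 to 107 CPM in Rik null libraries (median 95.9) and 86.0 to 138 CPM in WT libraries (median 114), and the genotypes overlapped.

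Col5a3 (chr9:20770050-20815067 on GRCm38) encodes a chain of type V collagen that joins Col5a1 and Col5a2 products in a minor heterotrimer. Its level was 6.64, 7.35 and 13.0 CPM (lowest, median and highest) in Rik null and 0.926, 2.12 and 2.58 CPM in WT libraries. Every Rik null library lay above every WT library, and Rik null replicate 1 was highest, apart from the other 6. The increase was 4.18-fold (log2 fold change 2.07, SE 0.22, edgeR adjusted p = 3.92e-07), and it was 1.92 on the log2 scale without Rik null replicate 1 (edgeR adjusted p = 3.51e-07). The partner chains did not pass the test, with log2 fold changes of 0.23 (SE 0.17) for Col5a1 and -0.03 (SE 0.13) for Col5a2. Within a library, the ratio of Col5a3 to Col5a1, both per kb, was 1.08 to 3.09 in Rik null and 0.187 to 0.696 in WT, without overlap. The ratio of Col5a3 to Col5a2 did not overlap either, at 1.19 to 4.28 against 0.188 to 0.606. Ratios are given as a description and were not tested.

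**Figure D2:**
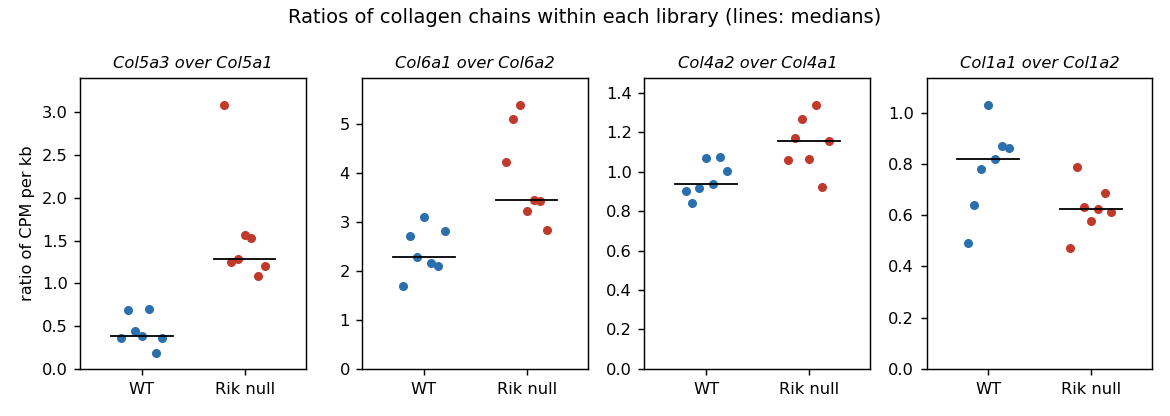
Ratio of the CPM per kb of a collagen chain to that of a partner chain (y axis, linear from 0) in each of the 7 WT and 7 Rik null libraries (points, in order of replicate number), with lines at the medians. For Col5a3 over Col5a1 the genotypes are separate (0.187 to 0.696 in WT and 1.08 to 3.09 in Rik null), and for the other pairs shown they overlap.

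Type I collagen, the main fibril protein of meninges and bone, is made of Col1a1 and Col1a2 chains. The study lists both genes among pericyte markers that did not differ significantly at P23. Its rule also asked for a change of at least 2-fold, which neither gene reached here. Col1a1 (chr11:94936224-94953042) was at 5.29, 9.69 and 13.5 CPM in Rik null and 7.35, 15.3 and 28.2 CPM in WT libraries. WT replicates 1 and 2 lay within the Rik null range, and WT replicate 4 was highest. Its level was lower in Rik null (log2 fold change -0.77, SE 0.22, edgeR adjusted p = 0.0098), and it still passed without WT replicate 4 (-0.58, edgeR adjusted p = 0.0323), but not without both WT replicate 4 and Rik null replicate 1 (-0.48, edgeR adjusted p = 0.0564). Col1a2 (chr6:4504814-4541544) was at 21.2, 27.0 and 37.4 CPM in Rik null and 28.3, 34.0 and 51.8 CPM in WT libraries, with WT replicate 4 again highest and Rik null replicate 1 lowest. Its decrease (log2 fold change -0.40, SE 0.14, edgeR adjusted p = 0.026) was small against this overlap. It did not pass when Rik null replicate 1, 2 or 3 or WT replicate 4 or 5 was left out (log2 fold changes -0.31 to -0.37, edgeR adjusted p 0.0523 to 0.0748), nor without Rik null replicate 1 and WT replicate 4 together (-0.25, edgeR adjusted p = 0.139).

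Type III collagen, a homotrimer of Col3a1 chains found with type I in vessel walls, was at 3.88, 8.23 and 11.5 CPM in Rik null and 10.8, 12.2 and 15.2 CPM in WT libraries. Only Rik null replicates 4 and 7 reached the lowest WT libraries. The log2 fold change of Col3a1 (chr1:45311538-45349706) was -0.56 (SE 0.17, edgeR adjusted p = 0.0136), and exons of Gm47302 on the same strand cover 1.44% of its exonic bases. Col3a1 did not pass in labelled females alone (-0.74, edgeR adjusted p = 0.0758) or labelled males alone (-0.37, edgeR adjusted p = 0.14), each with fewer libraries.

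Col11a2 encodes a chain of type XI collagen, best known from cartilage fibrils and the inner ear. Its level was 10.2, 12.6 and 15.8 CPM in Rik null and 16.4, 18.9 and 21.2 CPM in WT libraries, and all 7 Rik null libraries lay below all 7 WT libraries (log2 fold change -0.54, SE 0.10, edgeR adjusted p = 3.22e-04). It is the one member on the chromosome of Rik (chr17:34039437-34066685), 1.83 Mb from that gene, and an effect of the segment inherited with the null allele cannot be told apart from one of the allele. Its partner Col11a1 was at 5.37 to 10.8 CPM in Rik null and 4.77 to 10.7 CPM in WT (log2 fold change 0.02, SE 0.18). The ratio of Col11a2 to Col11a1 per kb had a median of 3.52 in Rik null and 5.21 in WT, with overlap.

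The remaining fibrillar genes did not pass. Col24a1, expressed in developing bone and cortex, had a log2 fold change of 0.55 (SE 0.25, edgeR adjusted p = 0.0963), and Col27a1, a cartilage collagen, one of -0.54 (SE 0.22, edgeR adjusted p = 0.0647). Col2a1, the main cartilage collagen, was rare at 0.478 to 1.74 CPM over the 14 libraries, with a log2 fold change of -0.41 (SE 0.31).

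**Figure D3:**
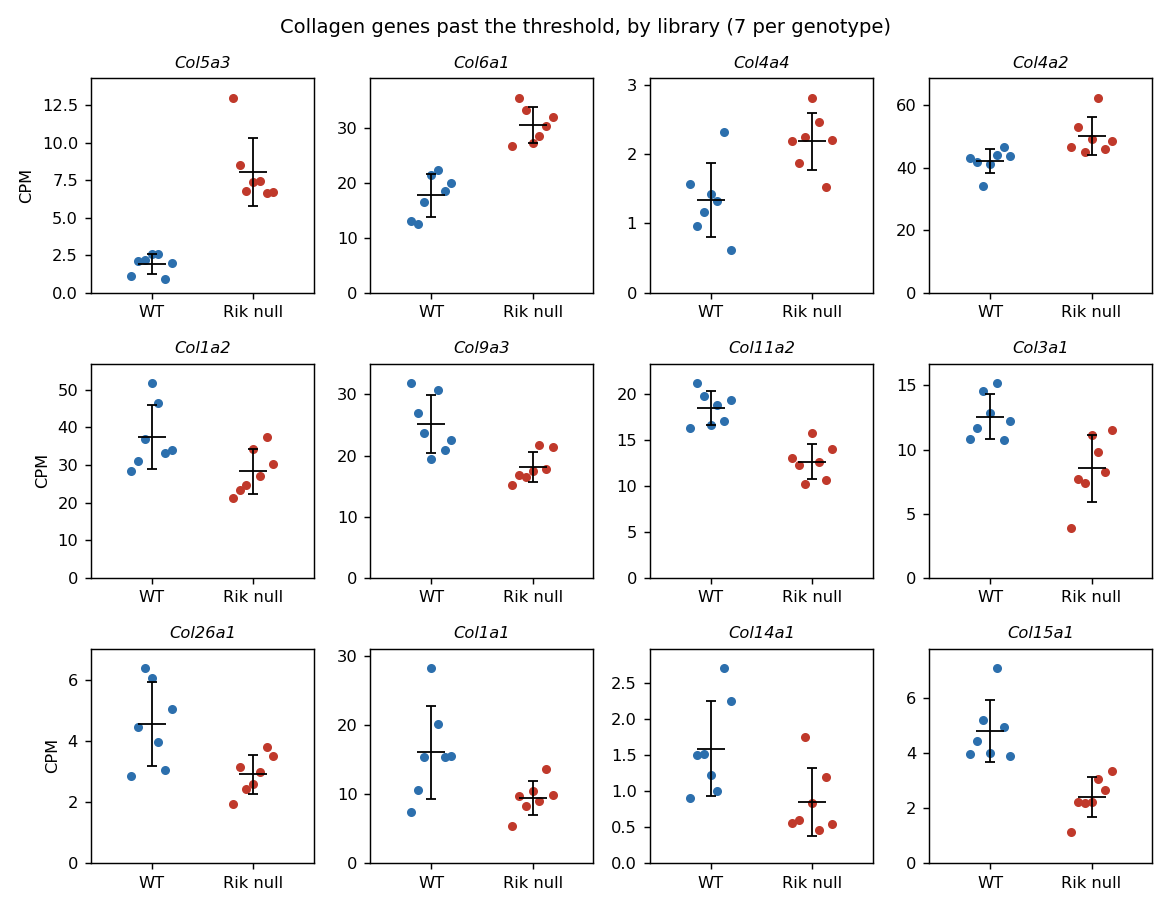
CPM (y axis, linear from 0) of the 12 collagen genes with an edgeR adjusted p under 0.05, in each WT (blue) and Rik null (red) library in order of replicate number, with the mean and SD of 7 libraries in black. Col5a3, Col6a1, Col11a2 and Col15a1 separate the genotypes fully, whereas the other 8 genes overlap, Col14a1 and Col1a2 among them.

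Type IV collagen forms the sheet-like network of basement membranes, and its 6 genes lie in 3 pairs that are transcribed away from each other. In this class 2 of 6 genes were higher (33.3%, beside 16.5% of all tested genes), none was lower (beside 17.9%) and the median log2 fold change was 0.01. The summed level was 95.7 to 128 CPM in Rik null and 87.6 to 112 CPM in WT libraries, with overlap.

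Col4a1 and Col4a2 encode the chains of the network found in all vessels, in a trimer with more Col4a1 than Col4a2 chains. Their annotated starts on chromosome 8 are 21 bases apart, on opposite strands. Col4a2 was at 45.2, 48.5 and 62.4 CPM in Rik null and 34.2, 43.2 and 46.8 CPM in WT libraries. Rik null replicate 5 was highest, and only Rik null replicates 1, 3 and 6 lay within the WT range. The increase in Col4a2 was 1.19-fold (log2 fold change 0.25, SE 0.08, edgeR adjusted p = 0.019) and missed the threshold without Rik null replicate 5 (0.19, edgeR adjusted p = 0.0513) and in labelled females alone (0.12, edgeR adjusted p = 0.462). Col4a1 was at 40.1, 51.3 and 56.5 CPM in Rik null and 42.0, 49.3 and 56.3 CPM in WT libraries, nearly the same range, with a log2 fold change of 0.01 (SE 0.08, edgeR adjusted p = 0.945). The ratio of Col4a2 to Col4a1 per kb had a median of 1.16 in Rik null and 0.936 in WT libraries, with ranges that overlapped.

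Col4a3 and Col4a4, chains of a network best known from the kidney glomerulus, were rare. Col4a4 (chr1:82448423-82586849) was at 1.53, 2.20 and 2.81 CPM in Rik null and 0.614, 1.32 and 2.32 CPM in WT libraries, or 9 to 47 counts per library. WT replicates 1 and 6 lay within the Rik null range. Its log2 fold change was 0.71 (SE 0.25, edgeR adjusted p = 0.0326), and the call was lost on leaving out any of 7 libraries (Rik null replicates 4, 5 and 7 and WT replicates 2, 3, 5 and 7), with log2 fold changes of 0.59 to 0.71 and edgeR adjusted p 0.0503 to 0.07. It was also lost without Rik null replicate 1 and WT replicate 4 together (0.72, edgeR adjusted p = 0.0543). Col4a3 had a log2 fold change of 0.02 (SE 0.33), and 5.65% of its exonic bases are shared with an opposite-strand gene. Neither of the X-linked genes Col4a5 (-0.21, SE 0.16) and Col4a6 (-0.28, SE 0.26), which form the network of smooth muscle and meningeal membranes among others, passed.

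Type VI collagen forms beaded filaments next to basement membranes, from one chain each of Col6a1, Col6a2 and a longer chain. Of 5 tested genes 1 was higher and none was lower, where 16.5% and 17.9% of all tested genes were, with a median log2 fold change of 0.10. Col6a1 (chr10:76708792-76726168) was at 26.7, 30.3 and 35.4 CPM in Rik null and 12.4, 18.5 and 22.3 CPM in WT libraries. No library overlapped, and WT replicates 1 and 2 were lowest. The increase was 1.72-fold (log2 fold change 0.78, SE 0.12, edgeR adjusted p = 3.51e-05). Col6a2, its obligate partner on the same chromosome, was at 11.7, 15.7 and 21.4 CPM in Rik null and 8.71, 13.8 and 19.7 CPM in WT libraries, with a log2 fold change of 0.10 (SE 0.15, edgeR adjusted p = 0.655). Ratios of Col6a1 to Col6a2 per kb were 2.84 to 5.38 in Rik null and 1.70 to 3.09 in WT libraries, with a narrow overlap.

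The longer chains did not pass. Col6a3 was at 1.95 to 5.17 CPM in Rik null and 1.95 to 8.51 CPM in WT libraries, where the highest value was again that of WT replicate 4 (log2 fold change -0.34, SE 0.29). Col6a4 (0.45, SE 0.46) and Col6a5 (-0.06, SE 0.36) were rarer and more variable. The summed level of the class, to which Col6a1 gave the most, was 42.4 to 59.1 CPM in Rik null against 25.0 to 48.1 CPM in WT libraries.

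FACIT collagens, which sit on the surface of fibrils and have interruptions in the triple helix, comprised 9 tested genes, of which none was higher and 2 were lower (22.2%, near the 17.9% of all tested genes), with a median log2 fold change of -0.04. Col9a3 (chr2:180597790-180622189), a chain of the type IX collagen that decorates cartilage fibrils, was at 15.3, 17.5 and 21.8 CPM in Rik null and 19.5, 23.7 and 31.9 CPM in WT libraries. Rik null replicates 5 and 7 reached the lower WT libraries, which were replicates 4 and 6. Its log2 fold change was -0.47 (SE 0.11, edgeR adjusted p = 0.00309), and 6.07% of its exonic bases overlap Tcfl5 on the opposite strand, whose reads cannot be told apart if counting ignored strand. The other type IX chains did not pass, with log2 fold changes of -0.04 (SE 0.12) for Col9a2 and 0.01 (SE 0.26) for Col9a1.

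Col14a1 (chr15:55307750-55520803), a FACIT of fibroblasts that regulates fibril diameter, was at 0.459, 0.602 and 1.75 CPM in Rik null and 0.910, 1.51 and 2.71 CPM in WT libraries. Rik null replicates 3 and 6 lay within the WT range, and counts were only 8 to 41 per library. Its log2 fold change was -0.89 (SE 0.34, edgeR adjusted p = 0.0434), and leaving out any of 9 libraries (Rik null replicates 1, 2, 4, 5 and 7 and WT replicates 2, 3, 6 and 7) ended the call, with log2 fold changes of -0.72 to -0.91 and edgeR adjusted p 0.0571 to 0.112. Without Rik null replicate 1 and WT replicate 4 together, Col14a1 had a log2 fold change of -0.87 (edgeR adjusted p = 0.0765). The other 5 FACIT genes, Col12a1, Col16a1, Col19a1, Col20a1 and Col22a1, had log2 fold changes between -0.23 and 0.15 and none passed.

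Multiplexins are basement membrane collagens with long interruptions, and both carry an endostatin-like end. Col15a1 (chr4:47208161-47313167), which anchors basement membranes of vessels and other tissues to fibrils, was at 1.13, 2.23 and 3.35 CPM in Rik null and 3.89, 4.46 and 7.09 CPM in WT libraries. All Rik null libraries lay below all WT libraries, with Rik null replicate 1 lowest and WT replicate 5 highest. The decrease was to 0.501 of the WT level (log2 fold change -0.998, SE 0.21, edgeR adjusted p = 7.95e-04), just inside 2-fold. Col18a1, the other member and a proteoglycan of vascular basement membranes, was at 11.4, 13.7 and 15.9 CPM in Rik null and 11.9, 13.6 and 14.9 CPM in WT libraries, which is the same range (log2 fold change 0.01, SE 0.09, edgeR adjusted p = 0.962).

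None of the 4 transmembrane collagens passed. Col25a1, a neuronal collagen that binds amyloid and acts in motor innervation, was at 54.4, 58.1 and 65.6 CPM in Rik null and 54.9, 58.5 and 71.0 CPM in WT libraries, with a log2 fold change of -0.01 (SE 0.07, edgeR adjusted p = 0.939). Col23a1 had a log2 fold change of 0.21 (SE 0.10, edgeR adjusted p = 0.1), and Col13a1, known from the neuromuscular junction, and Col17a1, known from skin hemidesmosomes, were at about 1 CPM.

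Of the short-chain network collagens of endothelial and corneal membranes, Col8a1 was at 5.35 to 9.89 CPM in Rik null and 7.26 to 11.4 CPM in WT libraries (log2 fold change -0.31, SE 0.14, edgeR adjusted p = 0.0895), and Col8a2 at 3.31 to 5.80 against 4.80 to 6.32 CPM (-0.36, SE 0.14, edgeR adjusted p = 0.0582). Neither passed, and both leaned lower.

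In the mixed remainder, Col26a1 (chr5:136741759-136883209), a little-studied collagen-like protein, was at 1.91, 2.99 and 3.78 CPM in Rik null and 2.86, 4.46 and 6.38 CPM in WT libraries. WT replicates 1 and 6 lay within the Rik null range. Its log2 fold change was -0.65 (SE 0.20, edgeR adjusted p = 0.0166), and it missed the threshold without Rik null replicate 1 and WT replicate 4 together (-0.49, edgeR adjusted p = 0.0766). Col7a1, the anchoring fibril collagen of skin (-0.10, SE 0.32), and Col28a1, found around peripheral nerve (0.17, SE 0.27), did not pass.

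**Figure D4:**
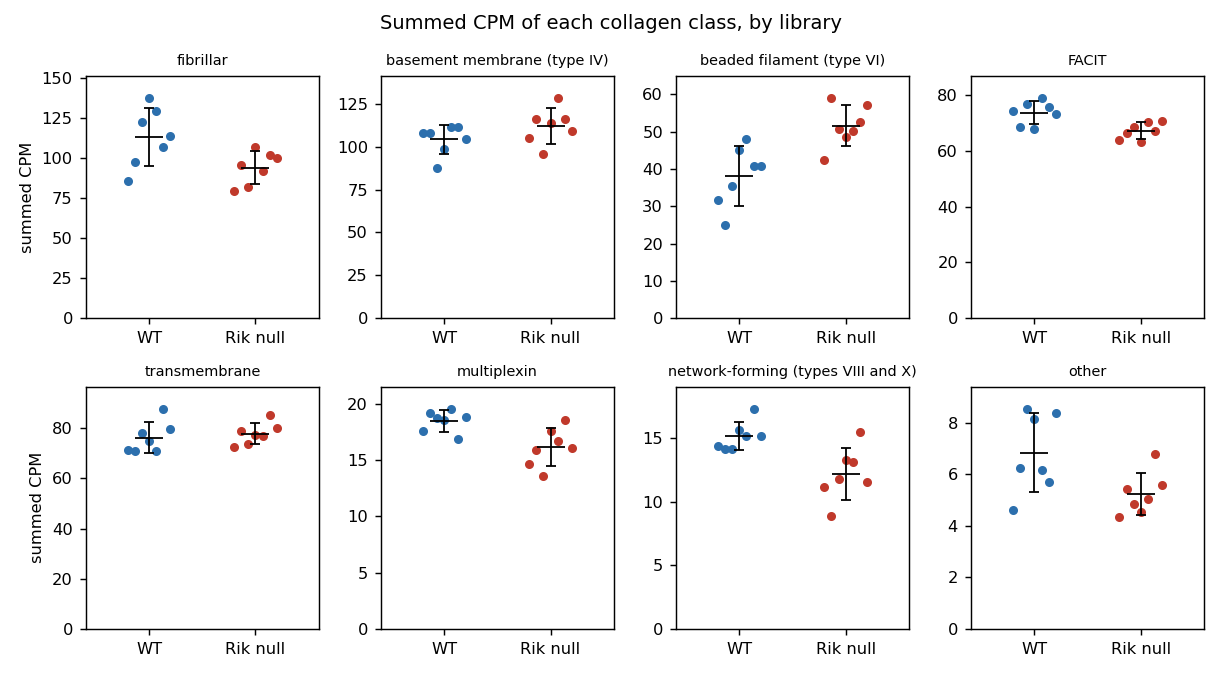
Summed CPM (y axis, linear from 0) of the genes of each collagen class in the 7 WT (blue) and 7 Rik null (red) libraries, with the mean and SD in black. Fibrillar sums are 86.0 to 138 CPM in WT and 79.9 to 107 CPM in Rik null, type VI sums are 25.0 to 48.1 and 42.4 to 59.1 CPM, and in all 8 classes the genotypes overlap.

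Per length, the members spanned a wide range of levels. In WT brain the order was led by Col4a1 at 6.65 ± 0.72 CPM per kb (SD, n = 7), Col9a3 at 6.53 ± 1.25 and Col4a2 at 6.38 ± 0.59, which did not differ beyond their spread. The mean of Col25a1, 4.63 ± 0.42, lay below these means by more than 1 SD, although single libraries overlapped. Col6a1 at 4.05 ± 0.89 overlapped Col25a1 within 1 SD, and Col1a2 at 3.01 ± 0.69 overlapped Col6a1. The lowest tested genes were Col7a1 at 0.125 ± 0.055 and Col6a5 at 0.0868 ± 0.0414 CPM per kb. Col5a3 was among the rarer members in WT at 0.282 ± 0.097 CPM per kb and reached 1.19 ± 0.33 in Rik null, above Col5a1 (0.791 ± 0.132) and Col5a2 (0.666 ± 0.127), whereas in WT both partner chains were higher than Col5a3 (0.671 ± 0.201 and 0.677 ± 0.062). Col6a1 rose to 6.96 ± 0.73 and Col4a2 to 7.59 ± 0.90 CPM per kb in Rik null.

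**Figure D5:**
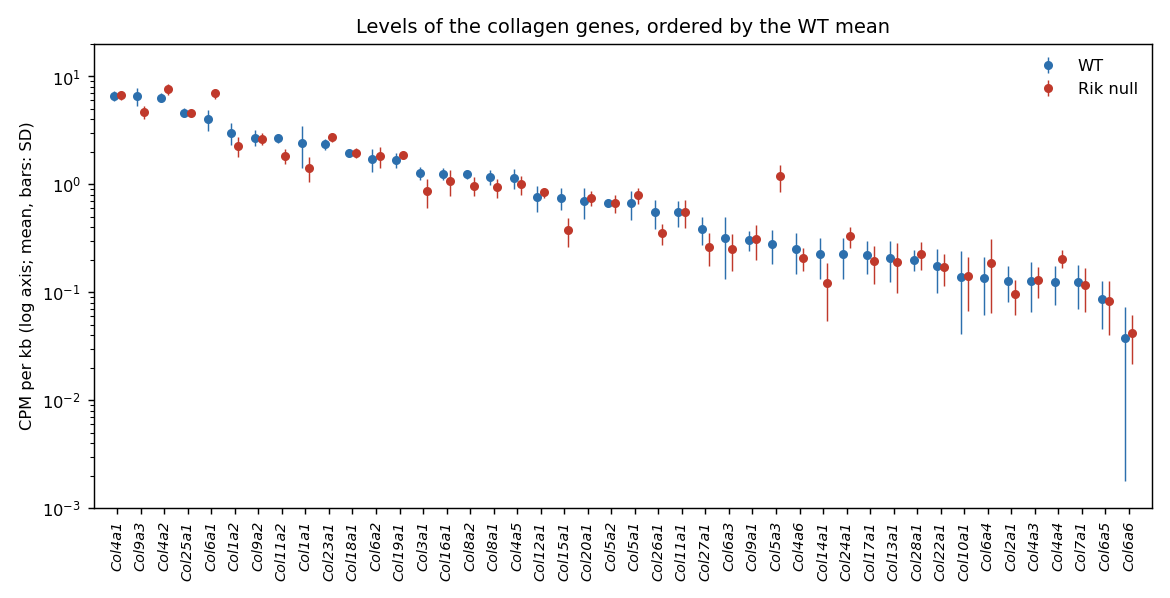
CPM per kb of gene length (y axis, log scale) of all 44 collagen genes, ordered from left to right by the WT mean, with points for the mean of 7 libraries and bars for the SD. Col5a3 is at 0.282 in WT and 1.19 in Rik null, and Col6a1 (4.05 and 6.96), Col11a2 (2.69 and 1.85) and Col15a1 (0.755 and 0.378) also differ without overlap of libraries.

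Whether the genotype difference itself differed between the labelled sexes was tested with an interaction term in edgeR. No gene of 16882 passed at an adjusted p under 0.05 (0%), and 5.83% had an unadjusted p under 0.05, against 1 of 42 collagen genes (2.38%). That gene was Col14a1, with a log2 fold change of -0.05 in labelled females alone (edgeR adjusted p = 0.959) and -1.65 in labelled males alone (edgeR adjusted p = 0.0149), and its interaction did not pass (edgeR adjusted p = 0.832).

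The machinery that builds and removes collagen was described with lists of genes drawn up from general knowledge, whose counts stand beside the 16.5% of all tested genes that were higher and the 17.9% that were lower. Of 20 tested genes for folding and hydroxylation in the endoplasmic reticulum, 1 was higher and 5 were lower, with a median log2 fold change of -0.05. Serpinh1, the collagen chaperone HSP47, was at 15.8 to 24.8 CPM in Rik null and 28.8 to 38.4 CPM in WT libraries (log2 fold change -0.82, SE 0.10, edgeR adjusted p = 1.76e-06). The lysyl hydroxylase Plod1 (-0.80, SE 0.08, edgeR adjusted p = 4.12e-07) and the prolyl 4-hydroxylase subunit P4ha1 (-0.77, SE 0.10, edgeR adjusted p = 6.95e-06) were likewise lower, without overlap between genotypes. Pdia3, a disulfide isomerase of the same compartment, fell by 0.34 on the log2 scale (edgeR adjusted p = 3.25e-05).

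Of 12 tested genes for trimming and cross-linking, 2 were higher and 3 were lower, shares close to the 16.5% and 17.9% of all tested genes. Lox, the lysyl oxidase that starts cross-linking, was at 3.37 to 11.6 CPM in Rik null and 1.30 to 2.70 CPM in WT libraries, without overlap (log2 fold change 1.50, SE 0.24, edgeR adjusted p = 6.42e-05). Bmp1, which removes the C-terminal propeptide, rose by 0.30 on the log2 scale (edgeR adjusted p = 0.0119), and its relatives Tll2 (-0.89, edgeR adjusted p = 0.0153) and Tll1 (-0.34, edgeR adjusted p = 0.036, past the threshold under 12 of 26 alternatives) were lower. Of 14 tested genes for breakdown, 3 were higher and 2 were lower. Among them, the membrane-bound proteases Mmp15 (-1.31, SE 0.09, edgeR adjusted p = 2.54e-09) and Mmp14, a collagenase (0.74, SE 0.11, edgeR adjusted p = 3.05e-05), moved in opposite directions. The study counts Mmp15 among the oligodendrocyte precursor markers that differed at P23, and the cell source of these changes was not tested. Among 10 collagen receptors, Ddr1, a receptor kinase (-0.49, edgeR adjusted p = 1.65e-05), was lower and Lair1, an inhibitory receptor of immune cells (0.54, edgeR adjusted p = 7.71e-04), was higher.

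Of 16 other basement membrane genes (laminins, nidogens, perlecan and Sparc), 3 were higher and 2 were lower, again near the shares of all tested genes (16.5% and 17.9%). Nid1, which links laminin to type IV collagen, was lower (-0.65, SE 0.11, edgeR adjusted p = 1.57e-04), while Sparc, a collagen-binding protein (0.47, SE 0.08, edgeR adjusted p = 2.06e-04), and the laminin chain Lama5 (0.77, SE 0.15, edgeR adjusted p = 3.71e-04) were higher. Of 10 tested small leucine-rich proteoglycans, which bind fibrils, 2 were higher and 4 were lower, with Prelp at -0.94 (SE 0.16, edgeR adjusted p = 1.49e-04), Bgn at -0.62 (SE 0.13, edgeR adjusted p = 6.94e-04) and Omd at 1.00 (SE 0.21, edgeR adjusted p = 9.47e-04). Of 16 TGF-beta ligands, receptors and target genes, 4 were higher and none was lower. Ccn2, a target gene that is also induced by mechanical load, was at 36.5 to 43.6 CPM in Rik null and 17.8 to 25.4 CPM in WT libraries (0.88, SE 0.08, edgeR adjusted p = 8.28e-08), and Tgfbr3 and Smad4 were also higher, the latter past the threshold under only 9 of 26 alternatives.

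Markers of the cells that make these collagens were present in every library, and 16 of 16 endothelial, 12 of 14 mural and 20 of 20 leptomeningeal and perivascular fibroblast markers were abundant enough to test. Of all tested genes, 16.5% were higher and 17.9% were lower. Among the 16 endothelial markers 3 were higher, a share near that of all genes, and none was lower. One of the 3, the glucose transporter Slc2a1, passed under only 14 of 26 alternatives. The endothelial list had a summed level of 399 to 495 CPM in Rik null and 329 to 479 CPM in WT libraries. Among the 12 tested mural cell markers 3 were lower, none was higher and 9 did not pass. The lower genes were led by Rgs5 of pericytes (-0.62, SE 0.08, edgeR adjusted p = 4.94e-06). Mural sums were 193 to 245 CPM in Rik null against 244 to 289 CPM in WT libraries. Much of these sums came from Rgs5 alone, at 76.5 to 108 CPM in Rik null and 107 to 150 CPM in WT libraries. Fibroblast markers went both ways. Of the 20, 5 were higher, among them Ptgds (1.05, SE 0.12, edgeR adjusted p = 1.26e-06) and Mgp (1.13, SE 0.19, edgeR adjusted p = 1.11e-04). The 3 lower ones included the transporter Slc22a8 (-1.06, SE 0.18, edgeR adjusted p = 1.26e-04). The list summed to 1462 to 2277 CPM in Rik null and 680 to 1084 CPM in WT libraries, mostly through Ptgds and Apod, which oligodendrocytes also express. The part of these markers in the collagen differences was not tested.

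Tissues next to the brain can also carry collagen RNA. Choroid plexus markers were lower for 7 of 12 genes, where 17.9% of all tested genes were lower, with overlapping sums of 597 to 774 CPM in Rik null and 562 to 876 CPM in WT libraries. These sums came mostly from Ttr, with means of 604 CPM in Rik null and 646 CPM in WT libraries. Ttr did not pass (log2 fold change -0.10, SE 0.09, edgeR adjusted p = 0.409). Of 6 tested cartilage and bone markers 1 was higher and 3 were lower, with sums of 13.1 to 22.7 against 18.2 to 24.2 CPM, and 4 others were too rare to test. The sums hide large shifts in opposite directions. Matn1 was higher (log2 fold change 3.32, SE 0.32, edgeR adjusted p = 1.17e-07). Lower genes included Cnmd (-2.49, SE 0.26, edgeR adjusted p = 4.53e-07) and Alpl (-1.17, SE 0.23, edgeR adjusted p = 4.15e-04). Sp7 was also lower (-0.52, SE 0.19, edgeR adjusted p = 0.0425), but it passed under only 13 of 26 alternatives. The study lists Sp7 among transcription factors of myelinating oligodendrocytes, so markers of this list need not come from tissue next to the brain. Blood markers were lower for 5 of 6 genes, with sums of 222 to 387 CPM in Rik null and 379 to 781 CPM in WT libraries. Of 7 Schwann cell markers 3 could be tested and 1 was higher, and Pmp2 was at 0 in all libraries. Pituitary markers summed to 4.03 to 9.06 CPM in Rik null and 6.44 to 25.7 CPM in WT libraries other than replicate 4. Among brain cells, 10 of 10 oligodendrocyte, 4 of 8 oligodendrocyte precursor, 5 of 8 astrocyte and 7 of 8 microglia markers were lower and none was higher, beside 17.9% and 16.5% of all tested genes. Whether any of these shifts moved a collagen gene was not tested.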

How the data were processed

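RNA from 14 P23 brains (7 per genotype, each replicate a separate animal by the labels) was sequenced and analysed at a commercial provider. The authors deposited raw read counts and FPKM per gene, with gene lengths. On the aligner, the counter, the annotation and strand, nothing is given in the sources used here. The submitters' processing notes name GRCm38, but the table's positions differ from it (1485 of 52073 shared identifiers have the same start in GENCODE M21), so positions come from GENCODE M21. The deposited FPKM served only to check the order of levels, which was the same as by CPM per kb. The authors' own fold changes, p-values and mean normalized counts were not used.

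The counts entered edgeR 4.0.16 under R 4.3.3 (quasi-likelihood F test, default settings, two-sided, genotype as the only term, TMM scaling, filterByExpr), with Benjamini-Hochberg adjustment over 16882 genes and a threshold of 0.05. SE is the log2 fold change over the root of F. Total counts of 14.7 to 17.9 M gave a common biological coefficient of variation of 14.3%, and no libraries were duplicates.

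Every collagen gene is accounted for. Those past the threshold, those with non-overlapping genotypes and the most abundant of each class are given in full, with up to 4 tested genes of smallest p from each list. Ttr is given besides, for its part in the choroid plexus sum. Some of these list genes have no value in the text, and 1 gene that the counts include is not reported here. The members, classes and lists were chosen with earlier results of these data known. Alternatives were a DESeq2 1.42.0 Wald test, RLE factors, scaling by library size alone, omission of mitochondrial genes, no filter or at least 1 CPM in 7 libraries, the robust option, sex as a covariate, a replicate block, omission of each library in turn and of Rik null replicate 1 and WT replicate 4 together, and females or males alone. A log2 fold change of at least 1 was also applied, as in the study.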

Additional observations from a re-analysis of the deposited data

Results flagged for a closer look

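The 42 tested collagen genes were screened in each genotype, 84 groups of 7 libraries in all, for a highest or lowest library whose gap to the next took up more of the group's range than Dixon's limit for 7 samples allows. About 1 in 20 groups meets this by chance, and 6 did. In Rik null, replicate 1 had 13.0 CPM of Col5a3 (others 6.64 to 8.54), 11.5 CPM of Col16a1, a FACIT (others 5.82 to 7.22), and 0.450 CPM of Col28a1 (others 1.13 to 1.48), and replicate 2 had 1.62 CPM of Col6a5 (others 0.398 to 0.877). In WT, replicate 4 had 8.51 CPM of Col6a3 (others 1.95 to 4.23) and replicate 5 had 7.09 CPM of Col15a1 (others 3.89 to 5.21). Without Rik null replicate 1, Col16a1 passed as lower (log2 fold change -0.38, edgeR adjusted p = 0.0153).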

How the results depend on the processing

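Col5a3, Col6a1, Col11a2 and Col15a1 passed in the same direction under all 26 alternatives, with log2 fold changes of 1.92 to 2.15, 0.68 to 0.86, -0.60 to -0.48 and -1.11 to -0.87. No called collagen gene changed sign. Of the others, Col9a3 passed under 25, Col1a1, Col3a1 and Col4a2 under 24, Col26a1 under 23, Col1a2 under 17, Col4a4 under 15 and Col14a1 under 12. The 4 higher and 8 lower collagen genes became 2 and 3 in labelled females alone and 3 and 4 in labelled males alone, which have fewer libraries. Leaving out each library gave 2 to 4 higher and 6 to 10 lower genes, with 2 higher without Rik null replicate 5. A change of at least 2-fold left 1 higher and 0 lower. Without both Rik null replicate 1 and WT replicate 4, 3 were higher and 6 lower, with Col16a1 and Col27a1 gained as lower. With library size alone, 5 were higher and 6 lower, and over all genes the median log2 fold change was 0.07 and 63.8% of calls were higher, against 47.9% with TMM. DESeq2 called the same 12 genes. The labels give both genotypes replicate numbers 1 to 7. Same-numbered libraries deviated together with a correlation over 0.1 in only 1 of 7 pairs, and 3 of 7 libraries correlated best with their own number. Whether same-numbered mice shared a litter or batch cannot be told from so few pairs, and the main test did not pair them. With the replicate block, 4 were higher and 8 lower, the same 12. For members near 1 CPM, with SEs of up to 0.46 on the log2 scale, differences of that size were not detectable at this depth.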
